A study of Mus musculus with 8 samples.

Results

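The interleukin-6 (IL6) receptor chains, their kinases, their transcription factors and their feedback inhibitors were followed through 10 genes, Il6st, Il6ra, Jak1, Jak2, Stat3, Stat5a, Stat6, Socs1, Socs3 and Cish. Each gene was taken through a probe set annotated to its symbol alone, and where there were several, through the brightest of them on average. All 10 passed the filter on dim probe sets and were read within a fit of 11189 genes. Affymetrix mouse arrays had been used to profile splenocytes, the cells released from the spleen, from 8 male mice of strain C57/BL6, 1 mouse per array. The mice carried an HMGA1a transgene (TG; HMGA1a is a chromatin protein that binds AT-rich DNA) or were wild-type littermates (WT), with 2 TG and 2 WT mice at 12 months of age and 2 TG and 2 WT mice at 2 months. By the series' design text, lymphoid tumours are well established in TG mice at the older age and have not yet formed at the younger. No drug or other treatment is labelled, and the promoter that drives the transgene is not given in the sources used here. No probe set is annotated to Hmga1 alone, so the level of the transgene was not analysed here.

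IL6 binds its own receptor chain, IL6RA, and the complex then pairs with the shared signalling chain gp130, the product of Il6st. Janus kinases bound to the chains are switched on and phosphorylate STAT proteins, chiefly STAT3 in the case of IL6, which enter the nucleus as dimers and start transcription. Among the genes that STAT proteins turn on are those of the SOCS family, whose proteins bind receptors or kinases and damp the signal, so that their transcripts are often read as a sign of recent cytokine signalling. The same kinases serve many other lymphocyte cytokines, with STAT5 acting under interleukin-2 and interleukin-7 and STAT6 under interleukin-4.

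Signals are linear array intensities, in the order replicate 1 and replicate 2. Fold changes are differences of log2(signal + 16), which understates the change of dim genes, given ± SE from a limma fit with n = 2 mice per group and adjusted by Benjamini-Hochberg over all 11189 genes at a threshold of 0.05. Replicate 1 and replicate 2 arrays differed in a similar way across the groups, and the labels do not say what the number marks. A fit with that number as a block therefore stands beside a result where it matters. None of the 10 genes passed the test in any of the 5 comparisons, with or without the block, and every difference given below for these genes is therefore a set of measured values that missed the test.

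Array medians were 44.9 to 49.5. Markers of B and T cells, the main cells of the spleen, had signal on every array, with 7 of 8 markers of either type in the fit and none at 0. The replicate 1 TG mouse of 12 months stood apart from the rest. Its summed signal was 9793 for B cell markers, where the other 7 arrays ranged between 15260 and 21090, and 5994 for T cell markers, where the others ranged between 2396 and 4257. Exocrine pancreas markers were high in 1 WT mouse of 2 months (6838, against 346.6 to 603.6 on the other arrays). The 3' to 5' ratio of the Gapdh control, a sign of RNA quality, was 0.843 and 1.21 in TG mice and 1.25 and 1.74 in WT mice at 12 months. At 2 months it was 1.07 and 1.48 in TG mice and 1.01 and 1.39 in WT mice. In every group it was higher in replicate 2, while the same ratio of the actin control was lower there. The part of these differences in the results below was not tested. In a mixed sample of spleen cells, fewer cells of a type and less RNA per cell cannot be told apart.

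**Figure D1:**
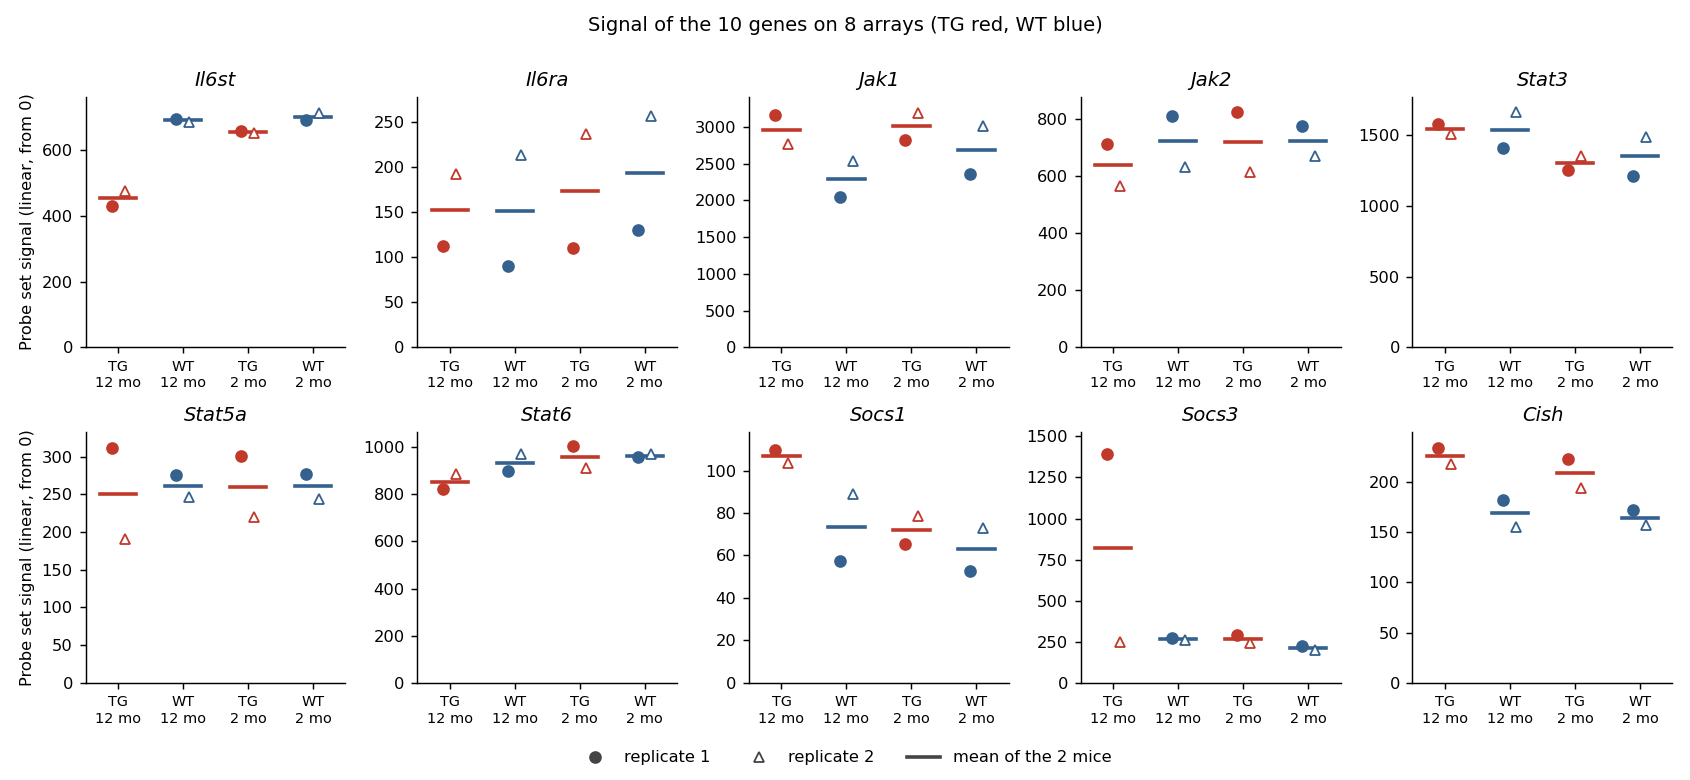
Signal of each of the 10 genes on every array (linear axis from 0), with TG mice in red and WT mice in blue, circles for replicate 1, triangles for replicate 2 and a bar at the mean of the 2 mice. Il6st is lowest in the 2 TG mice of 12 months, Cish is higher in all 4 TG mice than in all 4 WT mice, and Socs3 is high in 1 mouse alone.

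The 12-month comparison of TG with WT mice asks what differs once tumours are present. Of the 10 genes, 6 had a higher and 4 a lower mean in TG mice, and the median log2 fold change was 0.04, beside -0.03 over all genes. None passed the test (limma, smallest adjusted p among the 10 genes = 0.586), as was true of 0% of all genes. Only Il6st had an unadjusted p under 0.05, where 7.73% of all genes did. With the replicate block 0 of 10 passed, where 0.0447% of all genes did, and 4 of 10 (Il6st, Jak1, Socs1 and Cish) had an unadjusted p under 0.05, where 19.9% of all genes did. Neither WT mouse reached the lower TG mouse for Jak1, Socs1 and Cish, which is 3 of 10 beside 14.3% of all genes, and both TG mice were below both WT mice for Il6st and Stat6, which is 2 of 10 beside 19.9%.

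Among the receptor chains, Il6st (probe set 1452843_at) had a signal of 432 and 476 in TG mice, against 694 and 688 in WT mice at 12 months. At 2 months it had 658 and 653 in TG mice, against 692 and 713 in WT mice. The 2 TG mice of 12 months were thus the lowest of the 8, and the other 6 arrays lay close together. The log2 fold change at 12 months was -0.59 ± 0.16 (95% interval -0.95 to -0.23, adjusted p = 0.586, and 0.0861 with the replicate block), with -0.67 within replicate 1 and -0.52 within replicate 2. At 2 months the difference was -0.10 ± 0.16 (adjusted p = 1.00), and the difference between the effects at the 2 ages was -0.49 ± 0.22 (adjusted p = 1.00, and 0.598 with the block). On this probe set all 4 TG arrays lay below all 4 WT arrays, as for 1.5% of all genes.

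The other 3 probe sets annotated to Il6st did not follow this pattern as a group. The second brightest gave 212 and 186 in TG mice, against 212 and 304 in WT mice at 12 months, a mean log2 difference of -0.33. The remaining pair ran the other way, with 214 and 192 in TG mice against 184 and 135 in WT mice for one, and 110 and 96.8 against 88.6 and 82.9 for the other. This last and dimmest set also ran the other way at 2 months, with 97.1 and 106 in TG mice against 90.5 and 91.7 in WT mice. On it all 4 TG arrays lay above all 4 WT arrays, the reverse of the brightest set. Averaged over its 4 probe sets, Il6st had a log2 fold change of -0.09 at 12 months, so the low value belongs to the brighter sets alone. By the same average the difference between the effects at the 2 ages was -0.03, and the difference with age in TG mice was -0.21. Markers of macrophages and monocytes and of dendritic cells were also lower in TG than in WT mice at 12 months. The summed signal of macrophages and monocytes over 7 of 7 genes, none of them at 0, was 9080 and 12720 in TG mice and 17410 and 16950 in WT mice at 12 months. That of dendritic cells, over 5 of 6 genes and none at 0, was 1433 and 1467 in TG mice and 1879 and 2323 in WT mice at 12 months, and 2059 to 2310 on the arrays of 2 months. Macrophage and monocyte sums at 2 months were 13810 and 13200 in TG mice and 13270 and 15040 in WT mice. In WT mice those sums were thus higher at 12 months, while the brightest Il6st set overlapped between the ages. The part of these cells in the Il6st result was not tested.

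Il6ra (1452416_at), the chain that binds IL6 itself, had 113 and 192 in TG mice, against 89.9 and 213 in WT mice at 12 months. The 2-month signals were 111 and 236 in TG mice, against 130 and 257 in WT mice. The replicate number, not the genotype or the age, separated these values: all 4 replicate 1 arrays lay below all 4 replicate 2 arrays, with a mean log2 difference of -0.93. Log2 fold changes were 0.07 ± 0.50 at 12 months (95% interval -1.08 to 1.22) and -0.16 ± 0.50 at 2 months (adjusted p = 0.992 and 1.00), and the block narrowed the 12-month interval to -0.30 to 0.44. Neutrophils are known to carry much IL6RA, and neutrophil markers (9 of 9 in the fit, none at 0) were also split by replicate on 3 of the 4 pairs of arrays. Their sums were 9306 and 21030 in TG mice and 10240 and 5876 in WT mice at 12 months, and 7835 and 25020 in TG mice and 6564 and 20940 in WT mice at 2 months. In WT mice of 12 months the neutrophil sum was lower in replicate 2, while Il6ra was higher there. The part of neutrophils in the Il6ra values was not tested. The dimmer Il6ra probe set gave 160 and 114 in TG mice, against 97.2 and 112 in WT mice at 12 months.

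**Figure D2:**
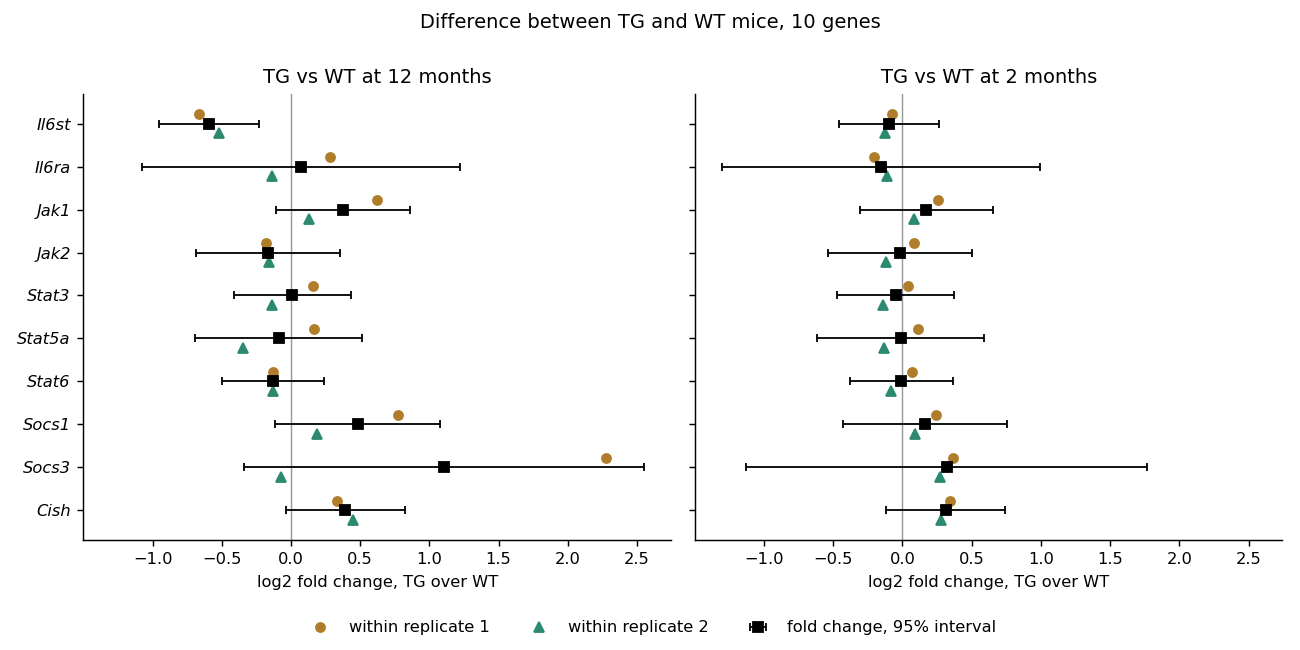
Log2 fold change of TG over WT mice at 12 months (left) and 2 months (right), with squares and bars for the fitted value and its 95% interval, and circles and triangles for the differences within replicate 1 and replicate 2. At 12 months only the interval of Il6st leaves out 0, before any adjustment, and the 2 replicates differ most for Socs3 (2.28 and -0.07).

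Of the kinases, Jak1 (1433805_at), which serves gp130 and most other lymphocyte cytokine receptors, had 3160 and 2765 in TG mice, against 2044 and 2529 in WT mice at 12 months. At 2 months it had 2821 and 3191 in TG mice, against 2356 and 3010 in WT mice. In each of the 4 pairs of the same age and replicate the TG mouse was the higher, which held for 9.63% of all genes. The log2 fold change was 0.38 ± 0.21 at 12 months (95% interval -0.10 to 0.86, adjusted p = 0.726, and 0.207 with the block) and 0.17 ± 0.21 at 2 months (adjusted p = 1.00). At 12 months it was 0.63 within replicate 1 and 0.13 within replicate 2. The other Jak1 probe sets gave mean log2 differences of 0.12 and 1.10 at 12 months, the larger from the dimmest set, with 483 and 267 in TG mice against 126 and 201 in WT mice.

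Jak2 (1421066_at), the kinase of the receptors for growth hormone, erythropoietin and interferon-gamma, had 714 and 567 in TG mice, against 811 and 634 in WT mice at 12 months. Mice of 2 months had 825 and 614 in TG mice, against 776 and 670 in WT mice. The groups overlapped at both ages, and on every pair replicate 1 was the higher. Fold changes on the log2 scale were -0.17 ± 0.22 at 12 months (95% interval -0.69 to 0.35) and -0.02 ± 0.22 at 2 months, neither past the test (adjusted p = 0.918 and 1.00). Its second probe set had 447 and 351 in TG mice, against 325 and 329 in WT mice at 12 months, a mean log2 difference of 0.27 in the opposite direction.

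Stat3 (1426587_a_at), the main transcription factor of IL6 signalling, had 1575 and 1509 in TG mice, against 1407 and 1663 in WT mice at 12 months. The 2-month signals were 1249 and 1348 in TG mice, against 1212 and 1486 in WT mice. On this probe set TG and WT mice overlapped at both ages. The log2 fold change was 0.01 ± 0.18 at 12 months and -0.05 ± 0.18 at 2 months (adjusted p = 0.997 and 1.00). The 95% intervals were -0.41 to 0.43 at 12 months and -0.47 to 0.37 at 2 months. For this probe set alone, they bound the difference that 2 mice per group could leave unseen. A transcript level says nothing of the phosphorylated protein through which STAT3 acts. The second brightest Stat3 set gave differences of -0.03 and 0.04 at the 2 ages. The dim pair gave -0.38 and 0.43 at 12 months, and -0.28 and 0.47 at 2 months. On the dimmest set both TG mice lay above both WT mice at 2 months, with 87.1 and 85.7 against 57.2 and 58.6.

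The 3 genes whose pattern over the 8 arrays lay nearest to that of Stat3 were Tinf2, a telomere-binding protein gene, Stau2, an RNA-binding protein gene, and Selenoo, a selenoprotein gene. Their root mean square distances, after each gene's own mean was taken off, were 0.03, 0.06 and 0.07 log2 units, beside a standard deviation of 0.16 for Stat3 itself.

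Stat5a (1421469_a_at), which acts under interleukin-2, interleukin-7 and prolactin, had 311 and 191 in TG mice, against 275 and 247 in WT mice at 12 months. At 2 months it had 301 and 220 in TG mice, against 278 and 243 in WT mice. Replicate 1 was the higher on every pair of arrays, and TG mice lay on both sides of WT mice at both ages. Its log2 fold changes were -0.09 ± 0.26 and -0.01 ± 0.26 at 12 and 2 months (adjusted p = 0.970 and 1.00). Stat6 (1426353_at), the factor of interleukin-4 signalling, varied least of the 10 genes, with a standard deviation of 0.09 log2 units over the 8 arrays. It had 821 and 887 in TG mice, against 899 and 972 in WT mice at 12 months, and 1005 and 914 in TG mice, against 958 and 970 in WT mice at 2 months. Its log2 fold change at 12 months was -0.13 ± 0.16 (95% interval -0.50 to 0.24, adjusted p = 0.914), with -0.13 within both replicates. Second probe sets of Stat5a and Stat6 gave mean log2 differences of 0.39 and 0.27 at 12 months, opposite in sign to the sets above.

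The feedback inhibitors Cish, Socs1 and Socs3 were the genes with a higher mean in TG than in WT mice at both ages besides Jak1. Their promoters are shown because STAT proteins and interferon regulatory factors are known to drive these genes. Each window of 300 bases runs from 250 before to 50 after the annotated start in RefSeq (build GRCm38.p6), 5′ to 3′ on the gene's strand, and base 0 is the first base from the start. They lie at chr9:107296409-107296708 (plus strand) for Cish, chr16:10785487-10785786 (minus strand) for Socs1 and chr11:117969317-117969616 (minus strand) for Socs3. Capitals mark matches to TTCNNNGAA, the palindrome to which STAT dimers bind, or to a pair of GAAA runs with 2 bases of any kind between them, the core of the element to which interferon regulatory factors bind.
Cish: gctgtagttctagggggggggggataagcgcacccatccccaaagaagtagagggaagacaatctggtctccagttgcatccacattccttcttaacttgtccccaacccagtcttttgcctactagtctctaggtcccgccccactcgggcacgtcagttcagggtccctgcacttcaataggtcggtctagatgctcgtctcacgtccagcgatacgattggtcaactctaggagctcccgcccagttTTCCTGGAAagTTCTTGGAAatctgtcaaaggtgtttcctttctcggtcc
Socs1: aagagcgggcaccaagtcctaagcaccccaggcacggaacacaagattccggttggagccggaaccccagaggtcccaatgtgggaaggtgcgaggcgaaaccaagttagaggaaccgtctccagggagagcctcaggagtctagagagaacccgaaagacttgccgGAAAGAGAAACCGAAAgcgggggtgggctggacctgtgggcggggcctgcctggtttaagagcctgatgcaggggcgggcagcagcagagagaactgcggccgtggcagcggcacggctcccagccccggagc
Socs3: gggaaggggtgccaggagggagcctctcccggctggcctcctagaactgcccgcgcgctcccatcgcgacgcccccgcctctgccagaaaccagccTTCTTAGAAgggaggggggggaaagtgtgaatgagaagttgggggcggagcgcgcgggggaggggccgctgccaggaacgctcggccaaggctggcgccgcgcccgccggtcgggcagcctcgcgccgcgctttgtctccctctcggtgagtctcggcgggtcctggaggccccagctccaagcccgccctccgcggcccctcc

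Cish held 2 matches to TTCNNNGAA, at bases 0 to 8 and 11 to 19, and Socs3 held 1 match, at bases -154 to -146. These were 2 of the 11 windows of the 10 genes (Stat5a has 2 windows), and 8.3% of all 32851 windows in the table hold at least 1. This motif is its own reverse complement, so both strands were searched at once. Socs1 held 2 matches to the paired GAAA motif, at bases -83 to -74 and -77 to -68, which overlap by 1 GAAA run. It was searched on both strands (as TTTC runs on the other), and 3.44% of all windows hold it. The wider palindrome, TTC and GAA with 4 bases of any kind between them, known for STAT6, was in 0 of the 11 windows and in 6.95% of all. A match is a run of letters and no evidence of binding in these cells.

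Cish (1448724_at), whose protein CIS is induced by STAT5 and restrains interleukin-2 and other cytokine receptors, had 234 and 218 in TG mice, against 182 and 156 in WT mice at 12 months. Mice of 2 months had 223 and 194 in TG mice, against 172 and 157 in WT mice. All 4 TG mice lay above all 4 WT mice, as for 1.28% of all genes. The log2 fold changes were 0.39 ± 0.19 at 12 months (95% interval -0.04 to 0.82, adjusted p = 0.679, and 0.177 with the block) and 0.31 ± 0.19 at 2 months (-0.12 to 0.74, adjusted p = 1.00). The 4 differences within age and replicate ran from 0.28 to 0.45. The difference between the effects at the 2 ages was 0.08 ± 0.26 (adjusted p = 1.00). The summed signal of T cell markers was 5994 and 2910 in TG mice and 2396 and 2932 in WT mice at 12 months. At 2 months it was 4257 and 3877 in TG mice and 3508 and 3389 in WT mice. All 7 T cell markers in the fit had a higher mean in TG mice at 12 months (median log2 fold change 0.65). In replicate 2 at 12 months the sums were close, at 2910 in the TG mouse and 2932 in the WT mouse, where Cish had 218 and 156. The part of T cells in the Cish values was not tested.

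Socs1 (1450446_a_at), which blocks Janus kinases directly and is induced by interferons, had 110 and 104 in TG mice, against 57.5 and 89.2 in WT mice at 12 months. The 2-month signals were 65.3 and 78.7 in TG mice, against 52.8 and 73.2 in WT mice. The TG mice of 12 months were the highest of the 8, and the WT mice of that age differed between themselves by more than the replicate 2 mice of the 2 genotypes did. The log2 fold change at 12 months was 0.48 ± 0.26 (95% interval -0.11 to 1.07, adjusted p = 0.714, and 0.248 with the block), with 0.78 within replicate 1 and 0.19 within replicate 2. At 2 months it was 0.16 ± 0.26 (adjusted p = 1.00). In all 4 pairs the TG mouse was the higher. Cish and Socs1 have 1 probe set each, so neither could be checked against another.

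Socs3 (1455899_x_at), the inhibitor that STAT3 induces and that binds gp130, had 1394 and 247 in TG mice, against 275 and 260.2 in WT mice at 12 months. Mice of 2 months had 290 and 244 in TG mice, against 221 and 199.8 in WT mice. A single mouse, the replicate 1 TG mouse of 12 months, was above the range of the other 7. The log2 fold change of 1.11 ± 0.63 (95% interval -0.34 to 2.55, adjusted p = 0.729, and 0.277 with the block) was made of 2.28 within replicate 1 and -0.07 within replicate 2. Without that mouse it was -0.11, and without the replicate 2 TG mouse it was 2.32, each with 1 TG mouse left at that age. At 2 months both TG mice were above both WT mice, with a log2 fold change of 0.32 ± 0.63 (adjusted p = 1.00).

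The other 2 probe sets of Socs3 were highest in the same mouse. The second gave 759 and 249.8 in TG mice, against 208 and 255 in WT mice at 12 months, and the third gave 422 and 298 in TG mice, against 156 and 212 in WT mice. The third set alone placed both TG mice above both WT mice at that age. At 2 months the first and second sets did so. The third overlapped there, with 186 and 304 in TG mice, against 159 and 240 in WT mice. Sets whose identifier holds _x_, as the first and second do, contain probes that can also bind other transcripts. The mouse with the high Socs3 signal was also the one with the low B cell and high T cell marker sums given above. The part of those sums in the Socs3 value was not tested.

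The genes nearest to Socs3 over the 8 arrays were Gzmk, a granzyme gene of cytotoxic T cells, Tox2, a nuclear factor gene, and Fabp5, a fatty acid carrier gene, at distances of 0.27, 0.30 and 0.315 log2 units, beside a standard deviation of 0.87 for Socs3. Each was highest in the same mouse. At 12 months Gzmk had 417 and 99.3 in TG mice, against 88.4 and 90.1 in WT mice, and Tox2 had 1085 and 335 against 359.8 and 396. Fabp5 had 3358 and 1057 in TG mice, against 1372 and 1002 in WT mice. Such a likeness rests on that 1 array.

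**Figure D3:**
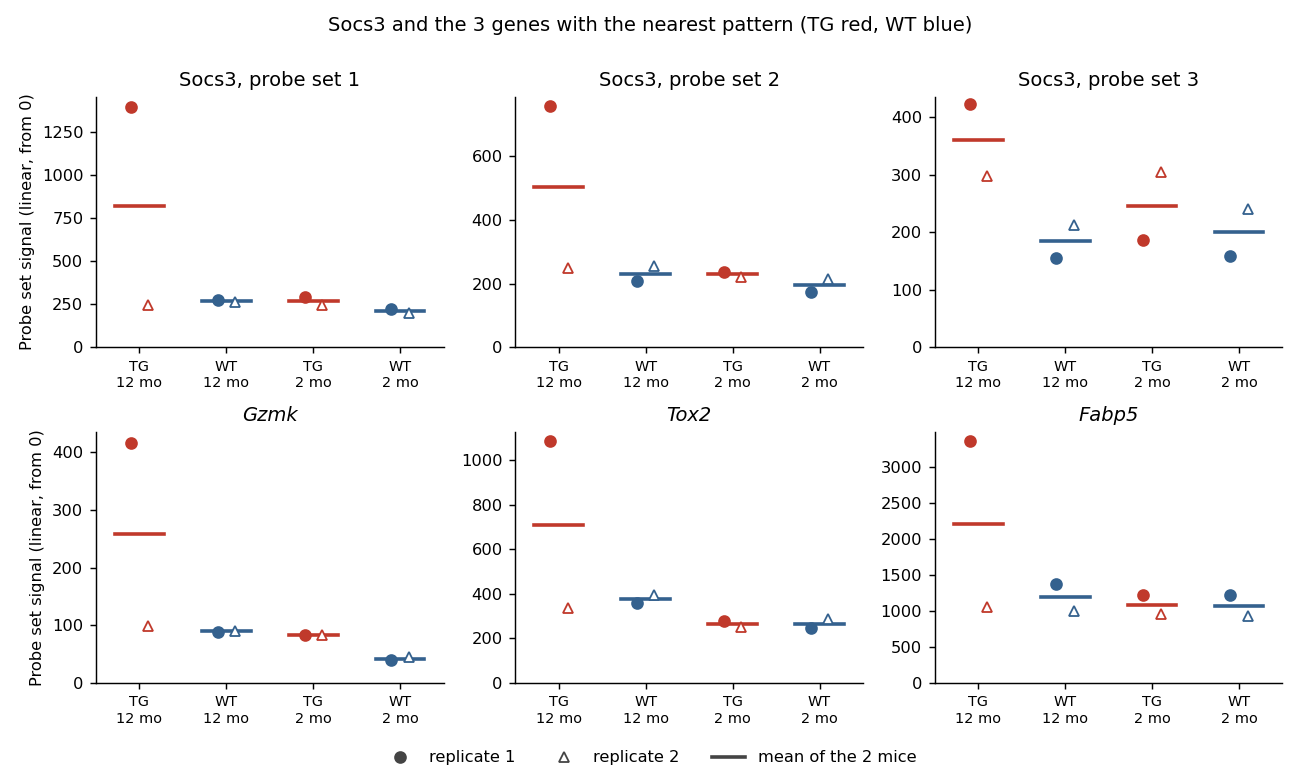
Signal of the 3 Socs3 probe sets (upper row) and of Gzmk, Tox2 and Fabp5 (lower row) on every array, with TG mice in red, WT mice in blue, circles for replicate 1, triangles for replicate 2 and bars at the mean of 2 mice. In all 6 panels the replicate 1 TG mouse of 12 months is the highest, at 1394, 759 and 422 for Socs3.

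**Figure D4:**
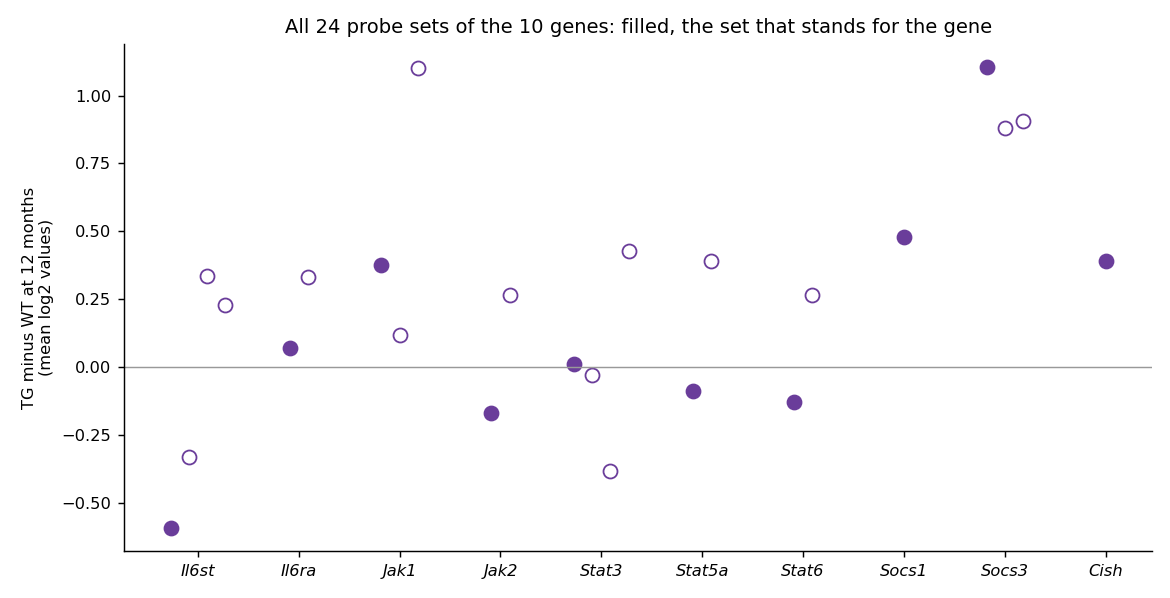
Mean log2 difference between TG and WT mice at 12 months for all 24 probe sets of the 10 genes, filled where the set stands for the gene. Sets of 1 gene fall on both sides of 0 for Il6st (-0.59 to 0.34), Jak2, Stat3, Stat5a and Stat6, and on 1 side for Il6ra, Jak1 and Socs3.

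The 2-month comparison asks what the transgene does ahead of tumours. Of the 10 genes, 4 had a higher and 6 a lower mean in TG mice, and the median log2 fold change was -0.01, beside 0.01 over all genes. None passed the test with or without the block (limma, 0% of all genes in either fit). Without the block 0 of 10 had an unadjusted p under 0.05, where 0.393% of all genes did, and with it Cish alone did, where 1.69% of all genes did. Both TG mice lay above both WT mice for Cish and Socs3, which is 2 of 10 beside 10.1% of all genes, and below them for Il6st, which is 1 of 10 beside 7.83%.

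The difference between the effects at 12 and 2 months tests whether the gap between TG and WT mice differed between the ages. Tumours are described at the older age alone, so action of the transgene itself cannot be told apart from theirs. None of the 10 passed, as was true of 0% of all genes with or without the block. Without the block 0 of 10 had an unadjusted p under 0.05, where 1.9% of all genes did, and with it Il6st alone did, where 8.14% of all genes did. Apart from Il6st, the largest differences were 0.79 ± 0.89 for Socs3 (1.91 within replicate 1 and -0.34 within replicate 2) and 0.32 ± 0.37 for Socs1.

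Age was compared within each genotype. In TG mice, 4 genes had a higher and 6 a lower mean at 12 than at 2 months (median -0.05, beside -0.04 over all genes). None passed, where 0.00894% of all genes did (0.188% with the block). Il6st had an unadjusted p under 0.05 (-0.52 ± 0.16, adjusted p = 0.894, and 0.141 with the block), where 4.72% of all genes did, and with the block Socs1 joined it (0.48 ± 0.26, adjusted p = 0.371 with the block), where 13.4% did. Both older TG mice lay above both younger ones for Stat3 (0.25 ± 0.18) and Socs1, which is 2 of 10 beside 10.3% of all genes, and below them for Il6st and Stat6, which is 2 of 10 beside 17.4%. For Socs3 the value of 1.11 ± 0.63 again came from 1 mouse. With 1 TG mouse left at 12 months, it was -0.10 without the replicate 1 mouse and 2.32 without the replicate 2 mouse. These values share the TG arrays of 12 months with the comparison of genotypes, so they are not a second line of evidence.

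In WT mice none of the 10 genes passed for age, as was true of 0% of all genes with or without the block, and 0 had an unadjusted p under 0.05, where 1.53% of all genes did (5.17% with the block, and again 0 of the 10). The median was -0.002, beside 0.01 over all genes. Il6st differed by -0.02 ± 0.16 between 12 and 2 months there. Stat3 was 0.19 ± 0.18 higher at 12 months in WT mice. Only Socs3 had both older mice above both younger ones (0.33 ± 0.63), which is 1 of 10 beside 12.7% of all genes, and 0 of 10 lay below, beside 10.9%.

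The rest of the pathway was read from 8 lists of ligands, receptor chains, kinases, inhibitors and target genes. Of the 76 genes of these lists in the fit, 0 passed the test at 12 months without the block, as was true of 0% of all genes, and 1, Fcer2a, passed with it, where 0.0447% of all genes did. Among ligands of the IL6 family, 3 of 9 entered the test, and Il6 itself did not. Ebi3, a subunit of interleukin-27 and interleukin-35, had 271 and 1010 in TG mice, against 210.4 and 285.5 in WT mice at 12 months (log2 fold change 1.06 ± 0.53, adjusted p = 0.699), a value made by the replicate 2 TG mouse. Clcf1, a ligand of the CNTF receptor, had 227 and 121 in TG mice, against 351 and 204.5 in WT mice (-0.64 ± 0.55, adjusted p = 0.857).

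The other receptor chains of the IL6 family, 4 of 5 in the test, all had a lower mean in TG mice at 12 months (median -0.26, beside -0.03 over all genes), and for 3 both TG mice lay below both WT mice, as for 19.9% of all genes. Lifr, the receptor chain for leukaemia inhibitory factor, which pairs with gp130, had 379.9 and 354 in TG mice, against 798 and 463 in WT mice (-0.71 ± 0.30, adjusted p = 0.641, and 0.112 with the block). Osmr, the oncostatin M receptor, had 259 and 211 in TG mice, against 331 and 264 in WT mice (-0.32 ± 0.20, adjusted p = 0.745). At 2 months 2 of these 4 genes had a higher and 2 a lower mean.

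Among 19 tested receptor chains of other cytokines that use Janus kinases, 7 had a higher and 12 a lower mean in TG mice at 12 months (median -0.08). Il10ra, the interleukin-10 receptor chain that signals through STAT3, had 231 and 239.8 in TG mice, against 422 and 370.5 in WT mice (-0.71 ± 0.23, adjusted p = 0.586, and 0.106 with the block). Il2rb, the shared chain of the interleukin-2 and interleukin-15 receptors, had 661 and 419.9 in TG mice, against 412 and 334 in WT mice at 12 months, and 558 and 485 in TG mice, against 336 and 295 in WT mice at 2 months. Its log2 fold changes were 0.49 ± 0.24 and 0.70 ± 0.24 (adjusted p = 0.693 and 1.00), and as with Cish all 4 TG mice lay above all 4 WT mice.

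Of 5 other Janus kinases and STATs in the test, 2 had a higher and 3 a lower mean at 12 months (median -0.11). Stat5b, the near twin of Stat5a, had 369.8 and 459 in TG mice, against 459.9 and 549.5 in WT mice (-0.28 ± 0.20, adjusted p = 0.805). The 16 other inhibitors, phosphatases and adaptors were split into 6 higher and 10 lower (median -0.16). They included Ptpn1, a phosphatase of Janus kinases (3081 and 3958 in TG mice, against 2386 and 2955 in WT mice, 0.39 ± 0.22, adjusted p = 0.727). Pias1, which had the largest moderated statistic of this list, went the other way. It had 585 and 494 in TG mice, against 917 and 671 in WT mice (-0.53 ± 0.24, limma adjusted p = 0.660, and 0.106 with the block). Without overlap, 4 of the 16 genes lay higher in TG mice and 4 lower, beside 14.3% and 19.9% of all genes.

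The 20 genes listed as STAT3 targets went both ways at 12 months, 9 of them higher and 11 lower in TG mice (median -0.01). Batf, a transcription factor of activated T and B cells, had 378 and 369.5 in TG mice, against 203 and 159 in WT mice (0.99 ± 0.20, adjusted p = 0.561, and 0.0730 with the block). Of the 7 STAT5 targets tested, 4 had a higher and 3 a lower mean (median 0.08). The 8 tested STAT6 targets had 3 higher and 5 lower (median -0.32). Their lowest value was that of Fcer2a, the low-affinity IgE receptor, with 298 and 467 in TG mice, against 805 and 1429 in WT mice (-1.48 ± 0.33, adjusted p = 0.561, and 0.0255 with the block). Fcer2a, Mrc1 and Cd209a, the 3 of 8 STAT6 targets that lay lower without overlap (19.9% of all genes did), also stand on the lists of B cell, macrophage and dendritic cell markers, whose medians at 12 months were -0.36, -0.71 and -0.49, so these lists are not separate evidence.

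**Figure D5:**
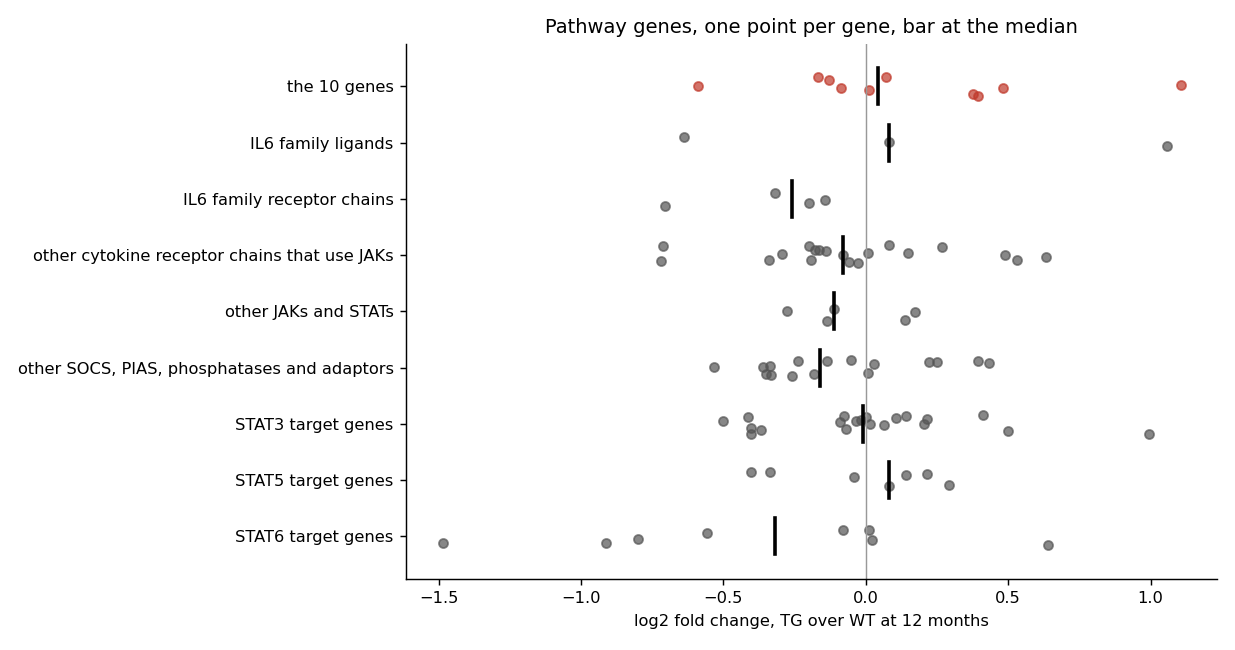
Log2 fold change of TG over WT mice at 12 months for the 10 genes (red) and the genes of 8 pathway lists (grey), 1 point per gene, with a bar at each median. The medians of the 10 genes (0.04) and of the STAT3 targets (-0.01) lie near 0, and those of the IL6 family receptor chains (-0.26) and STAT6 targets (-0.32) lie lower.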

How the data were processed

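RNA of spleen cells from 8 mice had been measured on 1 array each. The authors deposited 1 intensity per probe set, made with MAS5 in GCOS 1.4 per the submitters' processing notes, and each array has the same trimmed mean (150.001, leaving out 2% at either end). Probe sets were named from GEO's platform annotation with symbols updated by gene ID, and control probe sets were left out. After log2(signal + 16), probe sets at or above the median mean were kept, and the brightest set annotated to 1 symbol stood for each of 11189 genes. Group means were fitted with limma 3.58.1 in R 4.3.3 (intensity trend, 2-sided, Benjamini-Hochberg). The fit was tested on simulated data. The arrays' number limits the precision, with 4 residual degrees of freedom per gene.

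The replicate numbers mark a difference that the groups share. Differences between replicate 1 and replicate 2 correlated between groups at r = 0.464 to 0.654 over genes in all 6 pairs of groups, so the block was fitted as well. The correlation does not show that single mice were paired. The labels call the samples biologic replicates and name no litter or day. All 10 genes are named, plus up to 4 genes per pathway list and comparison by the size of limma's moderated statistic, of which the text gives some, and the 3 genes nearest to Stat3 and to Socs3. The genes and lists were chosen with earlier results of these data known. Promoters came from a RefSeq table (GRCm38.p6). Alternatives were a pseudocount of 4, no filter, quantile normalization, averaging all probe sets of a gene, no intensity trend, the block and leaving out each array.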

Additional observations from a re-analysis of the deposited data

How the results depend on the processing

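With 2 mice per group, only large and even differences could pass. A smaller pseudocount, no filter and no intensity trend changed no direction of the 10 genes and no count of genes that passed. Without the filter, over a longer list of genes, an unadjusted p under 0.05 was found for 292 genes at 2 months (44 with it), 488 for the difference between ages (213 with it), 869 for age in TG mice (528 with it) and 415 for age in WT mice (171 with it). The replicate block changed no call of the 10 genes. It moved the count of all genes to 5 at 12 months (0 without it) and to 21 for age in TG mice (1 without it). Leaving out 1 array at a time gave counts of 0 to 7 at 12 months (7 without the TG replicate 2 mouse of 12 months), 0 to 2 at 2 months, 0 to 4 for age in TG mice (4 without the same mouse) and 0 to 4 for age in WT mice (2 at 2 months and 4 for age in WT mice came without the WT replicate 2 mouse of 2 months). A group left with 1 mouse was assumed to vary like the others. Without the TG replicate 2 mouse of 12 months, Socs3 passed at 12 months and for age in TG mice. Its log2 fold change was 2.32 in both. Each value rests on the 1 TG mouse left at that age, the one with the high Socs3 signal. The spread within that group could not be measured there, so no conclusion is drawn from the changed call. Averaging each gene's probe sets turned the direction for TG over WT mice of Jak2 (0.048), Stat5a (0.152) and Stat6 (0.068) at 12 months, of Jak2 (0.096) and Stat3 (0.044) at 2 months, and of Stat3 (-0.036), Stat5a (0.27) and Stat6 (0.099) in the difference between ages. It did so for age of Il6ra (0.109), Jak1 (0.164) and Stat5a (0.181) in TG mice and of Stat5a (-0.088) in WT mice. Quantile normalization turned Stat3 at 12 months (-0.045) and in the difference (-0.006), and Stat5a for age in WT mice (-0.008). The cause of these turns was not tested. Leaving out 1 array turned the direction of 29 fold changes, some of them named above and none of them past the test with all arrays. At 12 months they ranged over -0.49 to 0.63 for Il6ra, -0.34 to 0.005 for Jak2, -0.11 to 2.32 for Socs3, -0.11 to 0.13 for Stat3 and -0.42 to 0.24 for Stat5a. At 2 months the ranges were -0.65 to 0.34 for Il6ra, -0.005 to 0.35 for Jak1, -0.23 to 0.19 for Jak2, -0.023 to 0.35 for Socs1, -0.19 to 0.097 for Stat3, -0.23 to 0.20 for Stat5a and -0.076 to 0.059 for Stat6. For the difference between ages they were -0.025 to 0.18 for Cish, -0.33 to 0.79 for Il6ra, -0.36 to 0.058 for Jak2, -0.42 to 2.00 for Socs3, -0.086 to 0.20 for Stat3 and -0.40 to 0.25 for Stat5a. For age in TG mice they were -0.62 to 0.37 for Il6ra, -0.12 to 0.075 for Jak1, -0.37 to 0.051 for Jak2, -0.10 to 2.32 for Socs3 and -0.40 to 0.26 for Stat5a. For age in WT mice they were -0.072 to 0.14 for Cish, -0.91 to 0.20 for Il6ra, -0.18 to 0.17 for Jak2, -0.093 to 0.42 for Socs1, -0.086 to 0.093 for Stat5a and -0.099 to 0.011 for Stat6.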

Other observations

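Of the 20 listed STAT3 targets, 4 had both older mice above both younger mice in TG mice (10.3% of all genes did) and 2 in WT mice (12.7% of all genes did), while 3 in either genotype lay below without overlap (17.4% and 10.9% of all genes in TG and WT mice), and none passed the test. Prdm1 and Pim1 were higher with age without overlap in both genotypes, and Hp was lower. Batf did not overlap in either genotype but went opposite ways (0.48 ± 0.20 in TG mice and -0.39 ± 0.20 in WT mice). The share of all genes without overlap in both genotypes was not counted. Prdm1, the gene of the plasma cell factor Blimp-1, had 354 and 175 at 12 months against 120.4 and 127 at 2 months in TG mice, and 333 and 197 against 139 and 129 in WT mice. Its log2 fold changes with age were 0.93 ± 0.34 in TG mice and 0.86 ± 0.34 in WT mice (limma, adjusted p = 1.00 for both). Hp, the gene of the haemoglobin-binding protein haptoglobin, had 55.6 and 127.4 at 12 months against 174.7 and 438.3 at 2 months in TG mice, and 123.6 and 112.4 against 136 and 483.3 in WT mice. Its log2 fold changes with age were -1.54 ± 0.61 in TG mice and -1.04 ± 0.61 in WT mice (limma, adjusted p = 1.00 for both). Pim1, a kinase gene that STAT3 and STAT5 induce, had 991 and 797 at 12 months against 554 and 654 at 2 months in TG mice, and 867 and 746 against 659 and 593 in WT mice. Its log2 fold changes with age were 0.55 ± 0.19 in TG mice and 0.36 ± 0.19 in WT mice (limma, adjusted p = 1.00 for both).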
